A study of Macaca mulatta with 4 samples.

Results

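The regions described here are 2167 autosomal stretches of H3K27me3 that were 10 to 30 kb wide in rhesus macaque (Macaca mulatta) morulae labelled GG and held no H3K27me3 interval in morulae labelled AG. They were selected by the measured values themselves. Intervals of GG replicate 1 separated by at most 1500 bp were joined into domains, and domains with at least 450 covered bases and a width of 10 to 30 kb were kept. A member had to overlap 1 kept GG replicate 2 domain of the same width range by at least 50% of its own width, and to have 0 covered bases in both AG libraries. GG replicate 1 had 15765 autosomal domains of any width with at least 450 covered bases, 6143 of them 10 to 30 kb wide, and 3026 of these recurred in GG replicate 2 under this rule. The members are 71.6% of those 3026 domains, and the remaining 859 held AG bases.

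The series profiled uniparental embryos by CUT&RUN, in which an antibody tethers a nuclease to a chromatin mark and the released DNA is sequenced; the sample titles call the libraries ChIP-seq, whereas the series title names CUT&RUN. AG stands for androgenetic embryos, whose nuclear genome is of paternal origin, and GG for gynogenetic embryos, whose nuclear genome is of maternal origin. Each group had 2 libraries, all 4 from the morula stage with the zona pellucida removed and with an antibody against H3K27me3. The labels name no further allele or treatment and give neither the number of embryos in a library nor whether replicates came from separate pools, so the spread between replicates may be technical. A uniparental embryo lacks the other parental genome altogether, which limits it as a model of that genome in a normal embryo.

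H3K27me3 is the trimethylation of histone H3 that Polycomb repressive complex PRC2 lays down, and it is associated with silent genes. In mouse, oocytes carry broad H3K27me3 domains that pass to the maternal chromosomes of the early embryo, where some of them keep the maternal copy of a gene silent without DNA methylation. Comparing gynogenetic with androgenetic embryos asks where the 2 parental genomes differ in the mark. The rule selects regions with GG and without AG coverage, so that difference in the members is no finding.

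The files list where tags on islands called enriched lie, as 42512 and 44337 intervals for the AG pair of libraries and 362999 and 287230 for the GG pair, replicate 1 first. They covered 0.497% and 0.635% of the autosomes in the AG replicates and 7.80% and 7.23% in the GG replicates. Sequencing depth is unknown, since no count is listed. The submitters called islands with a window of 200 bp and a gap of 200 bp in AG and a window of 300 bp and a gap of 1200 bp in GG. Group and calling settings therefore cannot be told apart, and 0 AG bases means that no called AG island was listed there. Coverage also does not separate fewer cells with the mark from less of the mark per cell. With 2 libraries against 2, the smallest exact two-sided permutation p is 0.33, and domains of 1 library are not replicates, so the values below are descriptions without a test. Binomial intervals (95%, exact Clopper-Pearson) cover counting error only and treat domains as independent, which neighbouring domains may not be.

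Lacking AG bases was the usual state of the genome and was less frequent in mid-width GG domains than in the genome at large. Of 178228 autosomal bins of 15 kb, 94.7% were empty in both AG libraries. Among the bins with no GG base in either library this share was 97.5%, and among the bins with bases in both GG libraries it was 76.8%. The 71.6% of reproducible mid-width GG domains (interval 70.0% to 73.2%) lay below all of these. The domains were 10 to 30 kb wide, so they were not compared with the 15-kb bins at equal width. For domains of 10 to 15 kb the interval was 72.7% to 77.5%, which includes the 76.8%. The AG libraries alone left 81.6% (replicate 1) and 74.4% (replicate 2) of the 3026 domains empty.

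Within the mid-width range, the share without AG bases was higher in the narrower domains. It was 75.1% of 1282 domains of 10 to 15 kb, 71.5% of 954 domains of 15 to 20 kb, 65.5% of 522 domains of 20 to 25 kb and 67.2% of 268 domains of 25 to 30 kb, where the intervals of the 2 widest classes overlapped. Outside the range, with GG replicate 2 held to the same width class, 62.9% of 431 domains under 6 kb, 74.9% of 1027 domains of 6 to 10 kb and 43.1% of 1426 domains over 30 kb lacked AG bases. A wider domain offers more places for an AG interval, so these shares are not per base. Per base, AG replicates 1 and 2 covered 3.86% and 4.76% of the summed width of the 3026 mid-width domains, and 3.89% and 4.44% of that of the domains over 30 kb. The lower share of empty domains over 30 kb thus went with nearly the same AG coverage per base. The domains under 6 kb had more AG coverage per base, at 10.3% and 12.5%. Within the mid-width range, AG replicates 1 and 2 covered 3.970% and 4.952% of bases at 10 to 15 kb. They covered 4.590% and 5.486% at 15 to 20 kb, and 3.471% and 4.160% at 20 to 25 kb. Both values were lowest at 25 to 30 kb, with 2.596% and 3.642%. The higher share of empty domains at 10 to 15 kb thus did not go with the lowest AG coverage per base.

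**Figure D1:**
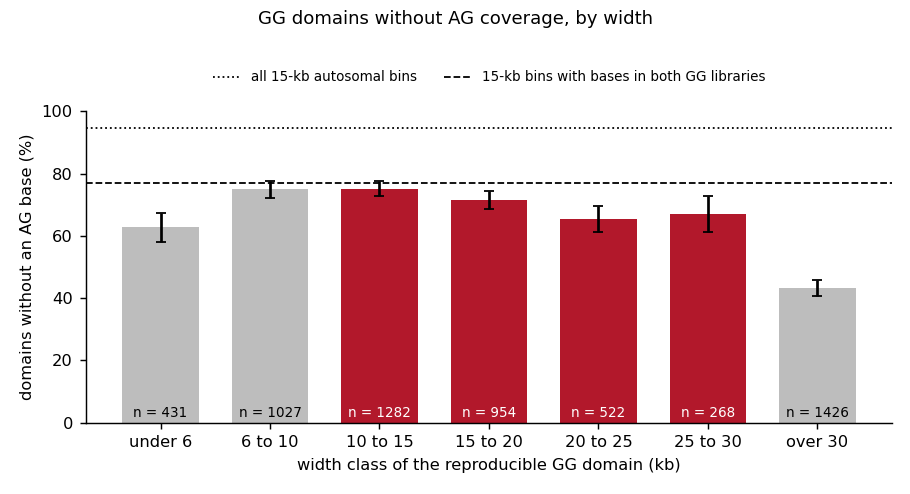
Share of reproducible GG domains without an AG base (%, vertical axis) by width class (kb, horizontal axis), with the mid-width classes in red, other widths in grey and bars for the exact 95% binomial interval. The mid-width classes lie between 65.5% and 75.1%, below the 76.8% of 15-kb bins with bases in both GG libraries (dashed) and the 94.7% of all 15-kb bins (dotted). The interval of the 10 to 15 kb class includes the dashed line.

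The members were compact blocks with most of their bases under tags in both GG libraries. Width in GG replicate 1 ran from 10.0 to 30.0 kb with a median of 15.7 kb, and the matching GG replicate 2 domains had a median width of 16.3 kb. The median covered share of the member span was 82.2% in GG replicate 1 (range 51.4% to 99.8%) and 78.1% in GG replicate 2 (range 33.5% to 99.6%). GG replicate 1 had the higher share in 1470 of 2167 members (67.8%), and the span was defined in that library. Measured over its own domain, GG replicate 2 covered a median of 85.3%. Both libraries covered at least 75% of the span in 1165 members (53.8%), whereas 94 members had under 50% in GG replicate 2 and none did in GG replicate 1. Together the members spanned 36.3 Mb, or 1.36% of the autosomes, and held 14.3% and 14.1% of the autosomal covered bases of GG replicates 1 and 2.

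A member was typically made of many short intervals rather than a single long one. The median was 24 intervals in each GG library, at 15.2 and 15.0 intervals per 10 kb in replicates 1 and 2. The longest uninterrupted interval had a median of 2568 bp in GG replicate 1 and 2582 bp in GG replicate 2, and the widest inner gap a median of 546 and 447 bp. The longest intervals therefore spanned a minor part of most members, and the inner gaps were mostly far below the 1500 bp that would have ended a domain.

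Mid-width domains with AG bases differed from the members in this inner structure, in both GG libraries. Their longest interval had a median of 4040 bp in GG replicate 1 and 3787 bp in GG replicate 2, and they had 11.93 and 11.99 intervals per 10 kb. Their widths were close to those of the members, with medians of 17.0 and 16.9 kb in GG replicates 1 and 2, and their covered shares were 85.5% and 82.0%. The median longest interval was longer in the domains with AG bases than in the members on 20 of 20 autosomes in GG replicate 1 and on 19 of 20 in GG replicate 2, with chromosome 18 the exception (3148 against 3270 bp in GG replicate 2).

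Ordered by longest GG interval, the share of domains without AG bases dropped from quartile to quartile. In GG replicate 1 it was 88.3% where the longest interval was at most 1935 bp, then 79.3%, then 67.9%, and 51.0% where it was at least 4493 bp. In GG replicate 2 it was 87.3% up to 1978 bp, then 77.1%, then 69.7%, and 52.3% from 4249 bp. The 2 libraries gave the same order, and the outermost quartiles differed by 36.2 percentage points on average. Width moved with this measure, since the median width was 13.8 kb in the lowest and 18.5 kb in the highest quartile of GG replicate 1. At nearly equal width the pattern was present as well: among domains of 10 to 15 kb, 86.7% at or below the median longest interval of GG replicate 1 and 63.5% above it lacked AG bases, and among domains of 25 to 30 kb 78.4% and 56.0% did. Without the outer 5 Mb of each autosome the lowest and highest quartiles stood at 89.6% and 52.6% in GG replicate 1 and at 89.6% and 53.1% in GG replicate 2. Interval length depends on tag density, and its part in this pattern was not tested.

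**Figure D2:**
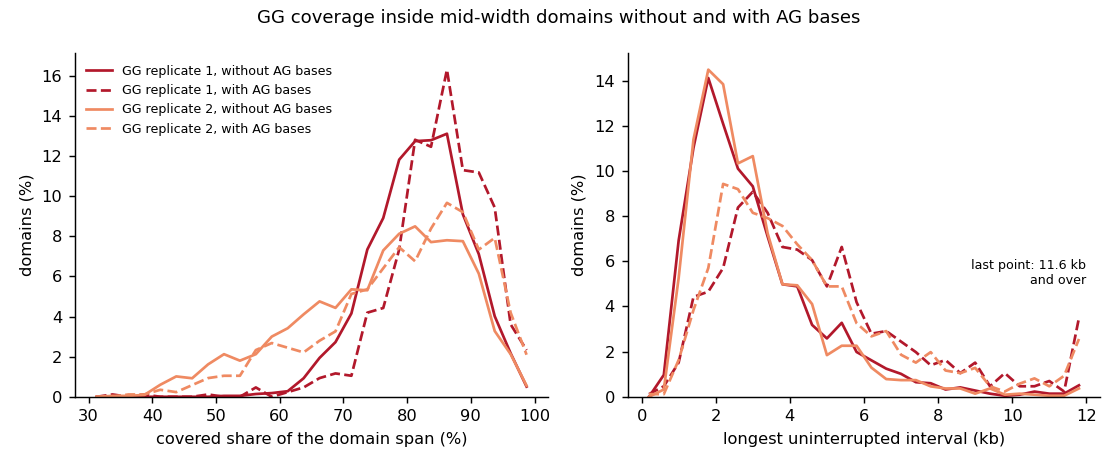
Share of mid-width GG domains (%, vertical axes) by covered share of the span (%, left) and by longest uninterrupted interval (kb, right), for 2167 domains without (solid) and 859 with AG bases (dashed) in GG replicate 1 (dark red) and replicate 2 (orange). The solid curves on the right peak at shorter intervals in both libraries, with medians of 2568 and 2582 bp against 4040 and 3787 bp.

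The most completely covered members were nearly solid in both libraries. Chromosome 5 from 7496910 to 7509899 (13.0 kb) had 12962 covered bases in GG replicate 1 and 12900 in GG replicate 2, or 99.8% and 99.3% of its span. It was followed by chromosome 1 from 29775550 to 29788300 (99.6% and 98.5%), chromosome 2 from 41409086 to 41424511 (98.0% and 99.2%), chromosome 2 from 197150078 to 197172840 (98.0% and 98.9%) and chromosome 10 from 90301273 to 90317205 (98.3% and 98.0%). These domains had 3 to 17 intervals in a GG library, against the median of 24. Genes in any of these regions were not analysed here, because no annotation of the build was used.

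The least covered members matched the GG replicate 2 domain only in part. Chromosome 8 from 79426771 to 79438886 had 6694 covered bases (55.2%) in GG replicate 1 and 4058 (33.5%) in GG replicate 2, whose own domain lay from 79422927 to 79433462. Chromosome 1 from 58493029 to 58503076 had 72.3% and 36.0%, chromosome 19 from 16204471 to 16215078 had 76.2% and 37.7%, chromosome 9 from 61980597 to 61990815 had 80.3% and 38.9%, and chromosome 13 from 65070896 to 65098270 had 75.7% and 40.0%. In all 5 the lower share was that of GG replicate 2. There the domain began or ended inside the member.

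The widest members lay just inside the limit of 30 kb. They were narrower in GG replicate 2, where the rule held the matching domain to 30 kb as well and left little room for a wider one. The widest was on chromosome 13 from 107690746 to 107720717, with a width of 29972 bp in GG replicate 1 and 24.0 kb in GG replicate 2. It had 26207 and 26155 covered bases within its span. The latter exceed the width of the matching domain, so GG replicate 2 also covered bases of the span outside that domain. Next came chromosome 11 from 27210913 to 27240872, which was 25.7 kb wide in GG replicate 2, and chromosome 3 from 179681817 to 179711729, which was 29.7 kb wide there. The remaining 2 of the 5 widest, on chromosome 11 from 115275334 to 115305221 and on chromosome 10 from 38726984 to 38756787, narrowed to 18.20 and 25.01 kb. Just outside, chromosome 13 from 67278282 to 67308293 was 30012 bp wide in GG replicate 1 and met every other condition, as did domains of 30130 and 30150 bp. At the lower limit the narrowest members were 10007, 10008 and 10010 bp wide, and the widest domains excluded by it alone were 9997, 9997 and 9995 bp wide. The overlap with GG replicate 2 began at 50.2% in members, and the nearest domains without AG bases below that limit had 49.8%. The AG limit was less of a continuum, which follows in part from the calling. AG bases are listed only on called islands, and the AG window was 200 bp. The fewest AG bases in a domain that held any were 159, 204 and 231 in its more covered AG library, while the median of that value over the 859 domains was 2310.

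The 2 GG libraries placed at least 1 edge more than 2000 bp apart in most members. The left edge shifted by a median of 1719 bp and the right edge by 1598 bp. Both edges lay within 2000 bp of each other in 663 members (30.6%), 1 edge did in 1077 (49.7%), and neither did in 427 (19.7%). Neither library had generally wider domains: 1124 members were wider in GG replicate 2 and 1043 in GG replicate 1, and 1753 (80.9%) differed by at most 1.5 times in width. Across the 2167 members the correlation of width between the libraries was 0.44 and that of covered share 0.50 (Pearson's r, a description over regions of the same 2 libraries, with widths limited to 10 to 30 kb in both). In the domains with AG bases both edges lay within 2000 bp in 349 of 859 (40.6%, interval 37.3% to 44.0%), a higher share than in the members (interval 28.7% to 32.6%).

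Averaged over the members, each library showed a step at the edge placed by the other. GG replicate 2 covered 22.5% of bases from 1500 to 2000 bp outside the GG replicate 1 edge, 34.7% in the last 500 bp outside, 50.8% in the first 500 bp inside and 81.3% at 4.75 kb inside. GG replicate 1 around the GG replicate 2 edges gave 21.5%, 32.2%, 49.5% and 79.4%. The profiles were alike in both directions, and most of the climb lay inside the edge of the other library. Members were chosen for overlapping domains in the 2 libraries, so higher coverage inside than outside follows in part from the rule.

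The surroundings of the members were also rich in GG coverage, whereas AG coverage was below the autosomal level in the nearest 10 kb and above it over 50 and 100 kb in both AG libraries. In 50 kb on either side, GG replicates 1 and 2 together covered 26.1% ± 0.188 of bases (SD, n = 2), compared with 7.80% and 7.23% of the autosomes. The AG libraries covered 0.791% ± 0.121 there (SD, n = 2), with 0.705% in replicate 1 and 0.876% in replicate 2. Flanks of neighbouring members can overlap and can hold other members. In the nearest 10 kb AG replicates 1 and 2 covered 0.317% and 0.447%, compared with 0.497% and 0.635% of the autosomes, and at 100 kb the AG mean was 0.828% ± 0.144. Around domains with AG bases the 50 kb flanks held 20.7% ± 0.630 in GG and 2.23% ± 0.307 in AG. Over 50 kb, members thus had more GG and less AG coverage beside them than the other mid-width domains. Both differences exceeded the spread between the 2 libraries of a group. The lower AG coverage follows in part from the choice of members, because an AG interval that crosses an edge puts its domain in the other set. The low AG level in the nearest 10 kb has the same limit, and the size of this part was not tested. Over the nearest 10 kb GG replicate 1 covered 17.8% beside members and 13.9% beside domains with AG bases, and GG replicate 2 covered 24.4% and 20.4%. The difference within each library was 3.90 and 4.00 percentage points, in the same direction. The libraries differed from each other by more than that, but the flanks start at GG replicate 1 edges. The joining rule leaves the first 1500 bp beyond such an edge empty in GG replicate 1 and does not bind GG replicate 2. The difference between the libraries over 10 kb thus follows in part from the rule and does not measure replicate spread.

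**Figure D3:**
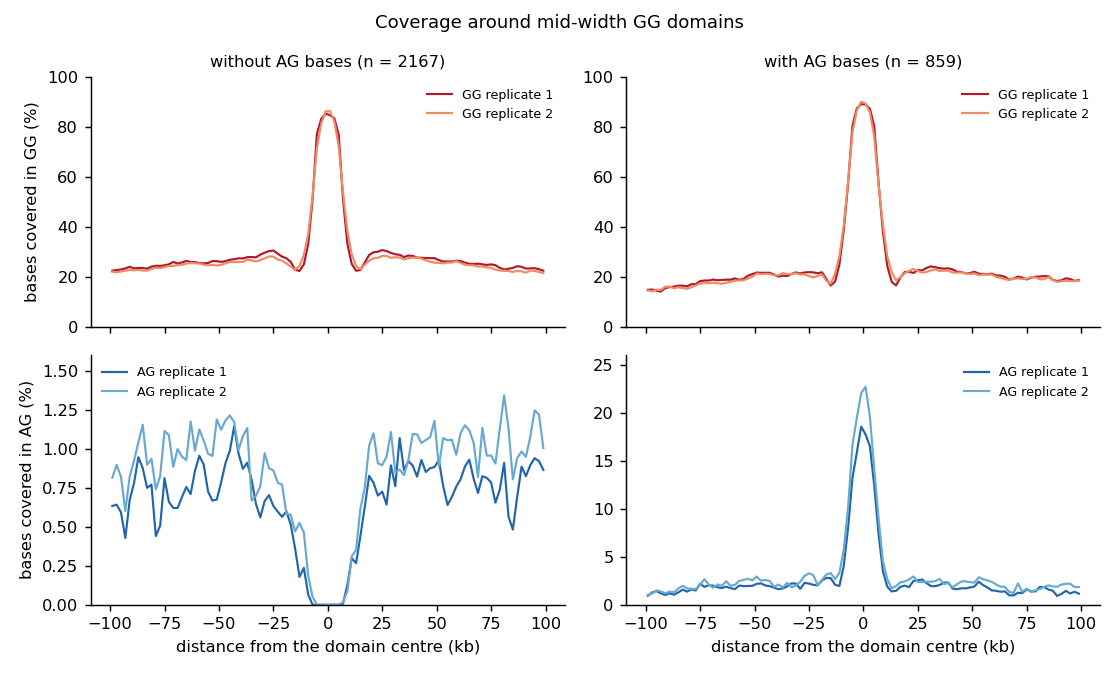
Mean share of bases covered (%, vertical axes, separate for each panel) in windows of 2 kb by distance from the domain centre (kb, horizontal axis), for GG (top, red) and AG (bottom, blue) libraries around 2167 domains without (left) and 859 with AG bases (right). GG coverage peaks above 80% in both sets, and AG coverage is 0 at the centre of the left set by the choice of members.

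AG intervals were sparse on the autosomes, where 94.7% of all 15-kb bins had none, and distances from other positions were not computed. The distances below therefore do not show that members were unusually remote from AG intervals. The distance to the nearest interval of either AG library had a median of 92.6 kb. AG replicate 2 came nearer, with a median of 108.8 kb against 197.6 kb for AG replicate 1, which covers fewer bases. An AG interval lay within 10 kb of 156 members (7.20%) and within 100 kb of 1128 (52.1%), and 57 members (2.63%) had none within 1 Mb.

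The remotest members formed a group on chromosome 5. There the domains from 127958047 to 127970783, from 127914037 to 127926701 and from 127880487 to 127903998 lay 3441, 3397 and 3363 kb from the nearest AG interval. In them GG replicate 1 covered 77.0%, 69.9% and 79.7% of the span and GG replicate 2 covered 78.6%, 69.1% and 82.7%. Another on chromosome 5 from 176636069 to 176662577 lay 2920 kb away, and 1 on chromosome 11 from 88827440 to 88838290 lay 2903 kb away. At the other extreme, AG intervals came as close as 489 bp to chromosome 13 from 42734917 to 42747315, 758 bp to chromosome 9 from 117462040 to 117474096, 812 bp to chromosome 1 from 112965842 to 112980294, 883 bp to chromosome 5 from 8587457 to 8601018 and 1166 bp to chromosome 15 from 5463811 to 5476831. In the first 4 of these the close interval belonged to AG replicate 2, and for the first 2 AG replicate 1 had none within 697 and 884 kb.

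Some members lay close together and others stood alone. The share with a near neighbour was not computed for other mid-width domains or for other positions, so it does not set the members apart. Another member lay within 100 kb of 1108 members (51.1%), with a median gap of 95.5 kb and an interquartile range of 18.3 to 401.7 kb. Counting all GG replicate 1 domains, the nearest one was a median of 5.98 kb away and within 10 kb for 1416 members (65.3%). Linking members at most 100 kb apart gave 1059 single members and 437 runs of 2 or more, of which 20 runs had at least 5 members and held 117 in all. With a joining distance of 3000 bp the share with another member within 100 kb was 36.2%, among 1602 members. The part that fusing of close neighbours had in this was not tested.

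The longest run had 9 members on chromosome 3 from 47070368 to 47381933. Over these 311.6 kb GG replicates 1 and 2 covered 48.9% and 50.4% of bases and both AG libraries 0%, and the nearest AG interval was 1509 kb away. Single members of the run were covered to between 65.6% and 94.2% in GG replicate 1 and between 48.5% and 97.5% in GG replicate 2. The next runs lay on chromosome 5 from 187876532 to 188198193 (8 members) and from 151910358 to 152200894 (7 members), also with 0% in both AG libraries. GG coverage was 56.6% and 57.0% in replicates 1 and 2 of the former and 59.0% and 47.5% in those of the latter.

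**Figure D4:**
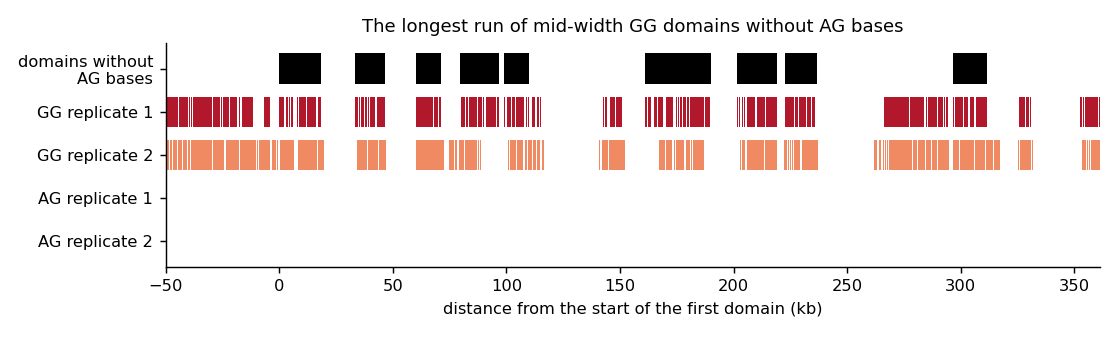
Intervals of the 4 libraries along the longest run of mid-width GG domains without AG bases, with the distance from the start of its first domain on the horizontal axis (kb) and 1 track per library. The 9 members (black) are separate blocks with intervals in both GG libraries, and the AG tracks are empty over the 311.6 kb.

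Members occurred on every autosome, at very different densities. Over all autosomes there were 0.811 members per Mb. Chromosome 16 had the most, with 111 members or 1.44 per Mb, followed by chromosome 20 (1.32), chromosome 13 (1.22) and chromosome 10 (1.22). Chromosome 18 had the fewest, with 20 members or 0.285 per Mb, and chromosomes 17 and 2 had 0.387 and 0.445 per Mb. The density of all reproducible mid-width domains had the same chromosomes at its ends, from 2.09 per Mb on chromosome 16 to 0.499 on chromosome 18. The share of those domains that lacked AG bases varied less, from 57.1% on chromosome 18 (20 of 35, interval 39.4% to 73.7%) to 80.1% on chromosome 13 (133 of 166, interval 73.2% to 85.9%). The intervals of most autosomes included the overall 71.6%, and those of chromosomes 1 and 13 did not.

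**Figure D5:**
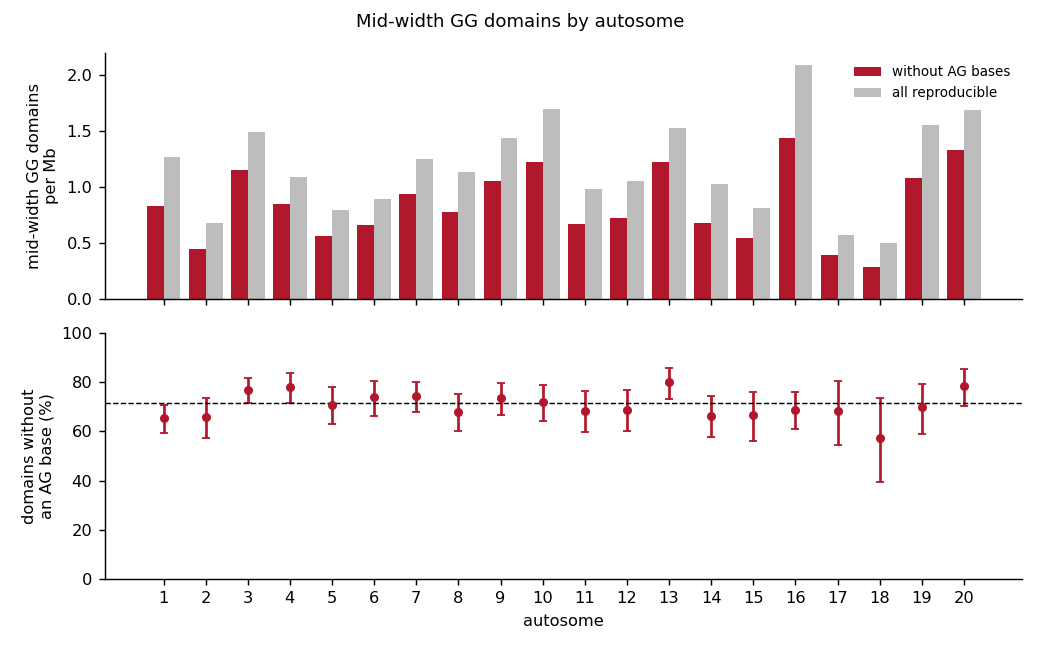
Mid-width GG domains per Mb by autosome (top, members in red and all reproducible domains in grey) and the share of them without an AG base (%, bottom, with exact 95% binomial intervals; dashed line at 71.6%). Density runs from 0.285 members per Mb on chromosome 18 to 1.44 on chromosome 16, while the share without AG bases stays between 57.1% and 80.1%.

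Members were more frequent near chromosome ends than length alone gives, and less so than domains with AG bases. The outer 5 Mb at both ends of each autosome make up 7.48% of the autosomal span and held 263 members (12.1%, interval 10.8% to 13.6%). They held 191 of the 859 mid-width domains with AG bases (22.2%, interval 19.5% to 25.2%). Put the other way, 57.9% of 454 reproducible mid-width domains in the outer 5 Mb lacked AG bases, against 74.0% of 2572 elsewhere. The same shares for all bins in and outside the outer 5 Mb were not compared, so this does not set the domains apart from their surroundings.

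The 3117 mid-width GG replicate 1 domains that did not recur were not members whatever their AG state. Of these, 980 lay at least 50% within a GG replicate 2 domain over 30 kb, 930 met no GG replicate 2 domain, and 1207 overlapped one in a smaller part or overlapped narrower ones. No AG base was found in 73.5%, 93.8% and 79.5% of these classes. The domains private to GG replicate 1 thus lacked AG bases most often of the classes compared, and the requirement that a domain recur lowered the share without AG bases from 76.8% to 71.6%. The number of members rests on that requirement: without GG replicate 2 it would be 4718, and 3788 domains of GG replicate 2 alone would qualify without GG replicate 1.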

How the data were processed

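H3K27me3 CUT&RUN data of 2 AG and 2 GG morula libraries were used, grouped by the sample titles. Per the submitters' processing notes, the authors called islands with SICER 1.1 on rheMac8, to which all positions refer, and also used deepTools 3.3.1, Trim Galore, SAMtools and Bowtie2. The deposited files hold genomic intervals without counts, so depth is unknown; their names give SICER's window, gap and E value of 0.001 for each library. Intervals within a file neither overlapped nor touched, and any 2 libraries had at most 68 identical intervals.

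Domains, covered bases, distances and exact binomial intervals were computed with Python 3.11.15, numpy 2.4.6, pandas 2.3.3 and scipy 1.17.1, and the code was tested on simulated intervals. Chromosome span is the highest interval end of any library. Named regions are the 5 widest members, the 5 at each extreme of covered share (the lower GG library) and AG distance, those next to the limits, and the longest run. Members, lists and limits were chosen with earlier results of these data known, and the comparison by longest interval was added after seeing the data. Alternatives varied joining distance, minimum bases, overlap, library order, AG limit and libraries. Sequence and genes were not analysed here.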

Additional observations from a re-analysis of the deposited data

How the results depend on the processing

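No paired analysis was possible because no result comes from a test between AG and GG libraries; sets of domains were compared within each library. With a joining distance of 500 bp the median covered share of members was 86.4%, both edges lay within 2000 bp in 35.3%, coverage in 50 kb flanks was 36.0% in GG and 1.02% in AG, 59.6% had another member within 100 kb and 16.9% lay in the outer 5 Mb. With 3000 bp the share of domains without AG bases was 69.5%, flank coverage 19.1% in GG and 0.628% in AG, neighbours within 100 kb 36.2% and the difference between quartiles of the longest interval 38.8 percentage points. Of the 2167 members, 831 (38.3%) were found with identical ends at 500 bp and 1300 (60.0%) at 3000 bp. An overlap of at least 80% gave 69.4% without AG bases, a covered share of 83.1%, close edges in 43.6%, GG flank coverage of 27.1%, neighbours in 42.6%, an outer share of 13.7% and a quartile difference of 39.3 percentage points. Domains taken from GG replicate 2 had GG flank coverage of 25.8%. With a GG replicate 2 domain of any width there were 3322 members. Requiring 10 kb on either side to be free of AG bases gave 66.5% without AG bases, with flank coverage of 25.9% in GG and 0.612% in AG. The outer 10 Mb held 25.6% of members.

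Leaving out 1 library at a time gave 2251 to 4718 members, 74.4% to 81.6% without AG bases, a covered share of 79.6% to 84.2%, flank coverage of 25.6% to 26.9% in GG and 0.764% to 0.862% in AG, neighbours in 51.8% to 69.4%, an outer share of 11.3% to 13.2%, and a quartile difference of 28.8 to 37.7 percentage points, lowest without AG replicate 2. Edges could be compared only without an AG library (31.2% and 31.6%). At most 450 AG bases in each AG library in place of 0 gave 2173 members. The planned look at sequence and genes was not run, since no genome of the build was used. Unknown depth limits every statement on AG: an island too weak to be called leaves 0 bases.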

Other observations

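The X chromosome lay outside the choice of members. The same rule applied to it found 206 reproducible mid-width GG domains, or 1.38 per Mb, and 205 of them (99.5%, exact binomial interval 97.3% to 99.99%) had no AG base. AG coverage was sparse on the whole chromosome: 9896 of its 9942 bins of 15 kb (99.5%) had no base in either AG library, as had 1405 of the 1433 bins with bases in both GG libraries (98.0%, interval 97.2% to 98.7%). The share among the domains was thus near that of the chromosome. The number of X chromosomes in the AG libraries is unknown, so few X chromosomes there cannot be told apart from little of the mark. The 206 domains had median widths of 16.7 and 17.4 kb in GG replicates 1 and 2, and median covered shares of 81.5% and 78.0%.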
